A study of Mus musculus with 2 samples.

Results

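The S100 genes encode small calcium-binding proteins with paired EF-hand motifs. The 10 genes described here (S100b, S100a1, S100a4, S100a6, S100a8, S100a9, S100a10, S100a11, S100a13 and S100a16) were taken by symbol from the 32285 genes listed for each of 2 single-cell RNA-seq libraries of adult mouse striatum, and all 10 symbols were found. Together they carried 100803 unique molecular identifiers (UMIs, each standing for 1 captured RNA molecule) in 12017 analysed cells. The largest totals were those of S100a16 (27630 UMIs), S100a1 (20185), S100a13 (18966) and S100b (16660), and S100a8 (243) and S100a9 (254) had the smallest. Of the 7 other S100 genes listed, S100a2 had 158 UMIs and S100a3 had 112, S100a7a, S100a14 and S100g had between 7 and 23, and S100a5 and S100z had 0.

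S100 proteins work mostly as dimers. When calcium binds, a surface opens that holds partner proteins such as annexins, myosin, the phosphoprotein AHNAK or p53, and several members are also released from cells and bind the receptors RAGE (Ager) and TLR4. In brain, S100B is the classical glial member and a marker of astrocytes that oligodendrocyte lineage cells also make. S100A8 and S100A9 form calprotectin, the main calcium-binding complex of neutrophils and some monocytes. S100A10 differs from the others because it no longer binds calcium and stays bound to annexin A2.

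Both libraries came from untreated C57/Bl6J mice (C57BL/6NTac in the protocol text) of 8 to 10 weeks, and the study's methods name male mice of slightly lower age. Nothing in the labels says how many animals went into a library or ties either of the named 10x kit versions to one of them. The tissue was digested with pronase and cleared of debris and myelin by a procedure that favours glia, so class sizes below are not those of the striatum. There is no treatment group, and the design compares cell classes within the 2 libraries and Crym+ with Crym- astrocytes, since the study was about astrocytes that express Crym, the gene for the thyroid hormone binding protein μ-crystallin.

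Library 1 held 6978 barcodes and 44597660 UMIs and library 2 held 5437 barcodes and 37982720 UMIs, with 9 barcodes in both. After filtering, 6803 and 5214 cells were left, with medians of 3806 and 5305 UMIs. The cells were clustered without the S100 genes, their partners, Crym or cell cycle genes, and the 14 clusters were called after marker lists as 11 classes. In 10 of the classes every marker was highest in its own class. In the OPC-like class (oligodendrocyte precursor cells) this held for 7 of 8, and Cspg4, which pericytes also use, was the exception. The same lists gave the classes their names, so this is no separate check. Of the 2209 oligodendrocyte-like cells, 714 came from a cluster with 4 of 9 markers raised and a median of 22.4% mitochondrial UMIs. The erythroid-like class (86 and 11 cells) was too small in library 2 to be tested. The fibroblast-like class had only 35 and 20 cells. The neuroblast-like class included 108 ependymal-like cells and cycling cells, and 183 of the 828 OPC-like cells were committed or newly formed oligodendrocyte-like cells by a finer clustering. Genes that vary with the S100 genes did take part in the clustering, and p-values take the classes as given.

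Of the 10 genes, 9 lie on chromosome 3 within 3053610 bases and S100b lies on chromosome 10 (76253853-76261159, plus strand, GRCm38). The closest neighbours are S100a1 (90511034-90514392, minus strand) and S100a13 (90514435-90524581, plus strand), which run in opposite directions with 42 bases between them. S100a16, S100a4, S100a6, S100a8 and S100a9 follow downstream, and S100a11 (93520488-93526287) and S100a10 (93555080-93564643) lie beyond a gap of 2824766 bases. The sequence between S100a1 and S100a13 is shown because it lies upstream of both genes, whose balance differed between classes. Promoter stretches are shown for S100a4 and S100a8, in which the letters TATAAA stand 31 and 30 bases before the start, for S100a11, with 3 copies of GGGCGG, and for S100b, with CCAAT on the opposite strand. They come from RefSeq promoters of GRCm38.p6, which matched 9 of the 10 genes, and capitals mark those letters.
between S100a1 and S100a13, chr3:90514393-90514434, plus strand: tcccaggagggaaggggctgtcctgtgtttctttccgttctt
S100a4, chr3:90603710-90603769, plus strand: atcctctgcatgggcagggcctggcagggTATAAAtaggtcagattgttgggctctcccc
S100a8, chr3:90669011-90669070, plus strand: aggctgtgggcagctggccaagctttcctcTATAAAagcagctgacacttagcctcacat
S100a11, chr3:93520416-93520495, plus strand: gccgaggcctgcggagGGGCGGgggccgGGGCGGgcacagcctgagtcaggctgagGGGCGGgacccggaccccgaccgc
S100b, chr10:76253776-76253835, plus strand: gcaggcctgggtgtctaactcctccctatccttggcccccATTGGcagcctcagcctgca

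TATAAA was searched on both strands of the 250 bases before each start, and 12.4% of the 32851 RefSeq promoters of that length held it. Among the S100 promoters it was found in S100a4 and S100a8. In the last 40 bases before the start and on the gene's strand, 2.31% of all promoters held it, again with S100a4 and S100a8 among them. GGGCGG was found in 32.7% of all promoters and in those of S100a11, S100a16 and S100a9. CCAAT was found in 33.8% and in those of S100a6 and S100b. None of the motifs contains another, and a match is a description of these letters alone.

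Levels are given as CPM, the UMIs of a gene per 1000000 UMIs of a class in 1 library, for library 1 and then library 2. The 3' libraries count 1 tag per molecule, so CPM is not scaled by gene length, and a class with fewer S100 UMIs may hold fewer positive cells or fewer molecules in each. Differences are log2 fold changes of a class against the mean of the other 9 tested classes, with their standard error (SE), from edgeR's quasi-likelihood test on the summed UMIs with Benjamini-Hochberg adjustment over all 15611 genes and 10 classes. S100a8 and S100a9 were kept out of all counts of calls because their UMIs came from single cells.

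**Figure D1:**
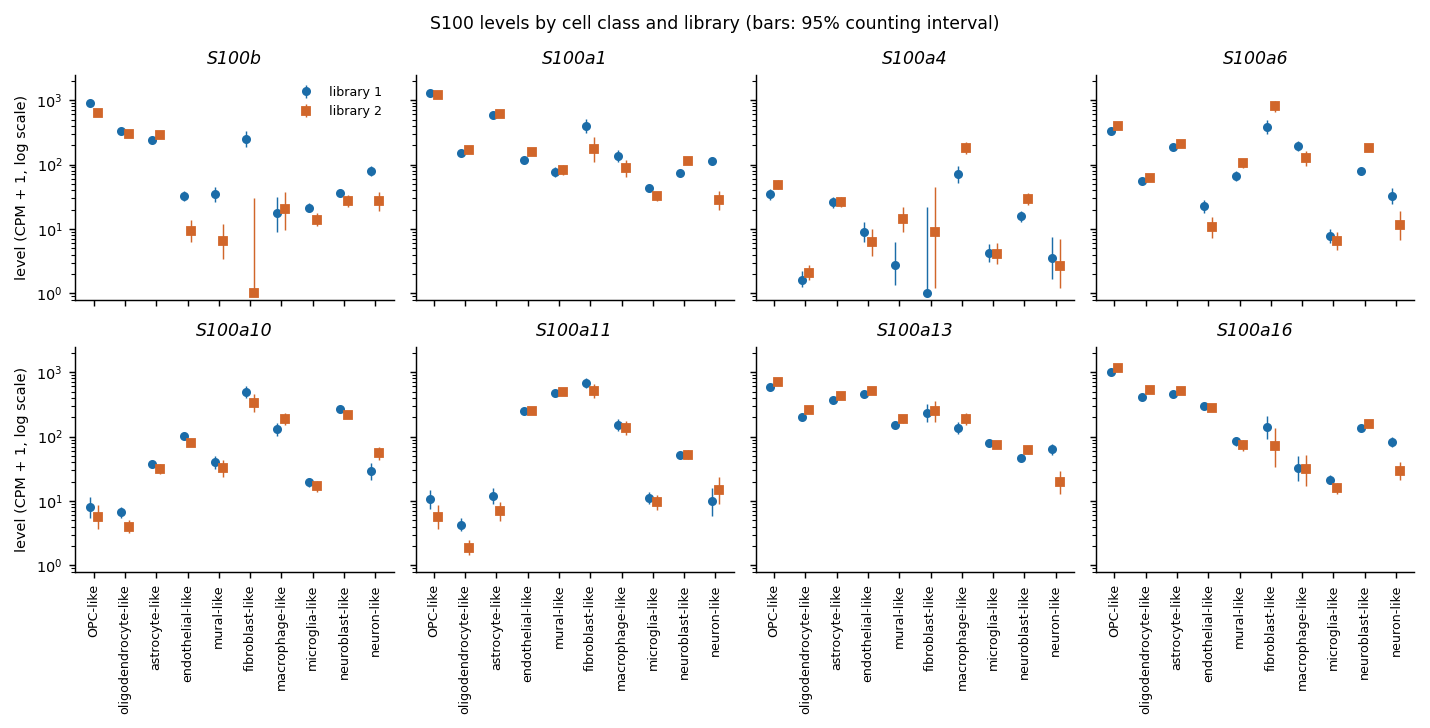
Levels of the 8 S100 genes with calls in each tested class, as CPM + 1 on a log axis, with 1 point per library and bars for the 95% counting interval. S100b, S100a1, S100a13 and S100a16 are highest in OPC-like cells (for S100a1 1278 and 1217 CPM), S100a6, S100a10 and S100a11 in fibroblast-like cells and S100a4 in macrophage-like cells.

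The first group was made up of S100b, S100a1, S100a16 and S100a13, which had their highest mean CPM in the OPC-like class and were raised in astrocyte-like cells as well. S100b was at 892.6 and 626.3 CPM in OPC-like cells, at 325 and 300 CPM in oligodendrocyte-like cells and at 241 and 285 CPM in astrocyte-like cells. In microglia-like, macrophage-like, endothelial-like, mural-like and neuroblast-like cells it was between 5.6 and 35.7 CPM. The 3 glial classes thus did not overlap with these 5 in either library. Against the mean of the other classes S100b was higher in OPC-like (log2 difference 3.54, SE 0.25, adjusted p = 9.3e-10), oligodendrocyte-like (3.08, SE 0.26) and astrocyte-like cells (2.29, SE 0.28, adjusted p = 1.6e-06).

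The newly formed cells held 69.6% and 47.2% of the S100b UMIs of the OPC-like class, and 637 of its 1062 and 573 of its 1262 S100a6 UMIs, in 98 and 85 of its cells. In the precursor cells proper S100b was at 454 and 469 CPM, still above the other classes in both libraries. Without the newly formed cells, an alternative added after the data were seen, the OPC-like difference of S100b was 2.79 (SE 0.28, adjusted p = 1.1e-07) and that of S100a6 was 1.51, and the calls of all 8 genes in this class remained.

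In neuron-like cells S100b was at 77.4 and 26.0 CPM, and the difference did not pass the test (log2 -0.75, adjusted p = 0.16). In fibroblast-like cells it was at 251 CPM in library 1 and 0 of 125813 UMIs in library 2, where 3 UMIs would be 23.8 CPM. In library 1, 36 of the 45 fibroblast-like S100b UMIs came from 2 cells. With that 0 in the mean of the other classes, the S100b differences without library 1 were 4.52 in OPC-like, 4.31 in oligodendrocyte-like and 3.65 in astrocyte-like cells, but -0.49 in macrophage-like, -0.81 in microglia-like and -0.29 in neuroblast-like cells. Without library 2 the astrocyte-like difference was 1.63.

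S100a1, a regulator of calcium handling best known from heart muscle, reached 1278 and 1217 CPM in OPC-like cells, the highest level of any member in any tested class. It was at 579 and 603 CPM in astrocyte-like cells and at 149 and 168 CPM in oligodendrocyte-like cells. In microglia-like cells only 41.5 and 31.1 CPM were counted. It was higher in OPC-like (log2 2.94, SE 0.20, adjusted p = 6.3e-10) and astrocyte-like cells (2.10, SE 0.22), while the difference in oligodendrocyte-like cells did not pass (0.55, adjusted p = 0.077). In neuron-like cells S100a1 was lower (-1.61), with -0.97 in library 1 alone and -2.85 in library 2 alone.

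S100a16, a broadly expressed and little studied member, was at 996 and 1163 CPM in OPC-like, 452 and 503 in astrocyte-like and 405 and 527 in oligodendrocyte-like cells. All 3 classes stood above every other class in both libraries. Endothelial-like cells followed with 295 and 276 CPM and microglia-like cells had 20.4 and 14.6 CPM. S100a16 was higher in OPC-like (log2 2.92, SE 0.16, adjusted p = 1.6e-11), oligodendrocyte-like (2.49, SE 0.16), astrocyte-like (1.97, SE 0.17) and endothelial-like cells (1.22, SE 0.18).

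S100a13, which takes part in the export of FGF1 without a signal peptide, had the narrowest range of the 8 genes. It was at 586 and 709 CPM in OPC-like, 455 and 515 in endothelial-like, 369 and 432 in astrocyte-like and 198 and 254 in oligodendrocyte-like cells. The lowest class was neuron-like cells with 62.8 and 18.7 CPM, and the mean of the highest class was 15.9 times that of the lowest, against 287.6 times for S100a11. S100a13 was higher in OPC-like (log2 1.70, SE 0.17, adjusted p = 8.4e-08), endothelial-like (1.67, SE 0.17), astrocyte-like (1.28, SE 0.17) and oligodendrocyte-like cells (0.92, SE 0.17, adjusted p = 0.00026), and the last was not called on library sizes alone (0.37, adjusted p = 0.12).

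S100a13 and S100a1, with only 42 bases between them, differed in balance between classes. In OPC-like cells 0.46 and 0.58 UMIs of S100a13 were counted per UMI of S100a1, and in astrocyte-like cells 0.64 and 0.72. In endothelial-like cells the ratio was 3.98 and 3.31, in mural-like cells 2.04 and 2.23 and in oligodendrocyte-like cells 1.33 and 1.51. Both libraries put the 3 last classes above 1 and the first pair below 1. The ratio of UMIs does not depend on library scaling.

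In the second group were S100a10, S100a11 and S100a6, whose highest mean CPM among the tested classes was in fibroblast-like cells. In that class 2 cells held 65 of the 121 S100a11 UMIs in library 1 and 25 of the 65 in library 2. For S100a10 2 cells held 33 of 87 and 20 of 42, and for S100a6 30 of 69 and 33 of 102. S100a11, a partner of annexin A1, was at 676 and 517 CPM in fibroblast-like, 475 and 484 in mural-like, 245 and 251.5 in endothelial-like and 152 and 134 in macrophage-like cells. In OPC-like, astrocyte-like, oligodendrocyte-like, microglia-like and neuron-like cells it stayed between 0.85 and 13.8 CPM. These 2 sets of classes were far apart in both libraries. The differences were 4.03 (SE 0.23) in fibroblast-like, 3.93 (SE 0.15, adjusted p = 8.2e-14) in mural-like, 3.01 (SE 0.15) in endothelial-like and 2.22 (SE 0.23) in macrophage-like cells, and -3.95 (SE 0.27, adjusted p = 5.6e-10, and -4.71 in library 2 alone) in oligodendrocyte-like cells.

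S100a10 was at 486 and 334 CPM in fibroblast-like, 267 and 217 in neuroblast-like, 128 and 188 in macrophage-like and 102 and 79.8 in endothelial-like cells. OPC-like cells, which led for the first group, had 7.1 and 4.7 CPM, and oligodendrocyte-like cells 5.6 and 3.0 CPM. S100a10 was higher in fibroblast-like (log2 3.23, SE 0.24, adjusted p = 2.2e-09), neuroblast-like (2.53, SE 0.14, adjusted p = 3.7e-11), macrophage-like (2.15, SE 0.22) and endothelial-like cells (1.18, SE 0.17), and lower in OPC-like (-3.46, SE 0.28) and oligodendrocyte-like cells (-3.12, SE 0.24). Neuron-like cells, in contrast to neuroblast-like cells, had 27.9 and 53.7 CPM (-0.48, adjusted p = 0.13).

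S100a6 (calcyclin, a partner of CACYBP and of annexins) did not follow one lineage. It was at 385 and 811 CPM in fibroblast-like, 330 and 392 in OPC-like, 185 and 206 in astrocyte-like and 195 and 124 in macrophage-like cells, where 2 cells held 70 of the 117 S100a6 UMIs in library 1 and 35 of the 58 in library 2. Endothelial-like cells, with 21.5 and 9.6 CPM, and microglia-like cells, with 6.9 and 5.5 CPM, were lowest together with neuron-like cells (31.7 and 10.6 CPM). It was higher in fibroblast-like (log2 2.86, SE 0.34, adjusted p = 1e-06; 2.27 in library 1 alone and 3.50 in library 2 alone), OPC-like (2.05), astrocyte-like (1.42) and macrophage-like cells (1.32, adjusted p = 0.0027). It was lower in microglia-like (-3.54, SE 0.40), endothelial-like (-2.43, SE 0.38, and -3.16 in library 2 alone) and neuron-like cells (-2.31).

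S100a6 in the neuroblast-like class (77 and 182 CPM) depended on the ependymal-like cells in it. With them the difference was 0.57 (adjusted p = 0.091), and without them it was -1.36 (adjusted p = 0.001). S100a4 in that class (14.7 and 28.4 CPM) was called higher (1.09, adjusted p = 0.0027), and without the 108 ependymal-like cells the difference was 0.03 (adjusted p = 0.91). Summed over the 6 ependymal markers, the neuroblast-like class had 202 and 306 CPM.

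S100a4 (metastasin, a binder of non-muscle myosin) was the least abundant of the 8 genes, with 922 UMIs. It was highest in macrophage-like cells with 69.9 and 181 CPM, followed by OPC-like cells with 33.5 and 47.8, astrocyte-like cells with 25.0 and 25.1 and neuroblast-like cells. Oligodendrocyte-like cells, with 8 and 15 UMIs in all, had 0.6 and 1.1 CPM. The differences were 4.17 (SE 0.31, adjusted p = 1.5e-09) in macrophage-like, 1.93 (SE 0.26) in OPC-like, 1.55 (SE 0.26; 2.15 in library 1 alone) in astrocyte-like and -2.79 (SE 0.66) in oligodendrocyte-like cells. Fibroblast-like cells, part of the mean behind these differences, had 0 and 1 S100a4 UMIs (-1.72, SE 1.49, adjusted p = 0.42).

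The macrophage-like S100a4 UMIs came from few cells, 6 of 94 in library 1 and 6 of 77 in library 2. In each library 2 cells held most of them, 28 of 42 UMIs in library 1 and 66 of 85 in library 2. Among the 171 cells of this class, 5 and 22 had 2 or more markers of T or NK cells, B cells, neutrophils or monocytes, and the T and NK markers summed to 23.3 and 706 CPM and the B cell markers to 79.9 and 469 CPM. In the other cells of the class S100a4 was at 51.9 and 102 CPM, with a UMI in only 4 of 89 and 3 of 55 cells. There S100a6 was at 123 and 114 CPM, S100a10 at 121 and 111 and S100a11 at 112 and 105. With the 5 and 22 cells left out the difference was 3.51 for S100a4 (adjusted p = 2.3e-07), 0.91 for S100a6, 1.74 for S100a10 and 1.84 for S100a11. All 4 calls thus remained, at smaller sizes, that of S100a4 on few cells.

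S100a8 and S100a9 were found almost wholly in 2 cells of library 1. A macrophage-like cell held all 390 UMIs of both genes in its class, and an OPC-like cell held 105 of the 107 in its class. Of 9 neutrophil genes searched, Retnlg, Cxcr2, Csf3r and Lcn2 had UMIs in both cells, Ly6g and Mmp9 in 1 of them and Camp, Ngp and Ltf in neither. Retnlg was found in no other cell, whereas Csf3r was found in 1266 cells in all. In class levels this gave 323 CPM of S100a8 and 326 CPM of S100a9 in macrophage-like cells of library 1 and 0 in those of library 2, where 3 UMIs would be 6.40 CPM. In OPC-like cells of library 1 they were at 14.9 and 18.0 CPM, and the other 9 classes had no UMI of either in any library. None was found among the 245 doublets and 153 barcodes with few genes that were left out. No test is given for these genes, since the libraries are the replicates and the cells were in only 1 of them.

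Shares of cells with at least 1 UMI did not always follow the levels. In OPC-like cells 78.4% and 76.7% had S100b (exact 95% intervals 74.1 to 82.4% and 72.4 to 80.6%), 79.7% and 84.2% had S100a1 and 82.0% and 86.5% had S100a16. In oligodendrocyte-like cells 71.1% and 85.1% had S100a16 but 32.6% and 33.5% had S100b. S100a1 was found in a mean of 61.1% of oligodendrocyte-like cells at a mean of 159 CPM and in 55.4% of astrocyte-like cells at 591 CPM, and S100a13 in 67.9% at 226 CPM and 47.7% at 401 CPM. Oligodendrocyte-like cells were much deeper, with a median of 11910 UMIs against 2003 in astrocyte-like cells. S100a4 was found in 7.09% of macrophage-like cells, where its level was highest, and in 21.3% of OPC-like cells. In microglia-like cells, with medians of 6928 and 5500 UMIs, 10.4% and 5.76% had S100b, against medians of 7476 and 7326 UMIs in OPC-like cells, and the part of free RNA in these shares was not tested. In astrocyte-like cells, at 1727.5 and 2781.5 UMIs, 36.2% and 49.1% had S100b. When each cell was thinned to 1000 UMIs, S100b was left in 40.9% and 36.5% of OPC-like, 16.2% and 21.1% of astrocyte-like, 14.1% and 12.1% of oligodendrocyte-like and 2.35% and 1.34% of microglia-like cells, with the same order of classes. For S100a1 and S100a13 the order of oligodendrocyte-like and astrocyte-like cells turned. The mean thinned shares were 12.8% against 33.7% for S100a1 and 17.3% against 26.0% for S100a13. For S100a4 the order of macrophage-like and OPC-like cells turned too, with mean thinned shares of 5.70% against 3.74%. Intervals cover counting error only.

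Seen by class, the OPC-like class had the most members called, with 6 of 8 higher and 2 lower, and 26.4% and 16.9% of all genes tested were called in these directions. The astrocyte-like class had 6 higher and 1 lower (26.1% and 21.4% of all genes). The oligodendrocyte-like class had 3 higher and 3 lower (34.7% and 18.4%). The same 6 genes were higher in OPC-like and astrocyte-like cells, namely S100b, S100a1, S100a4, S100a6, S100a13 and S100a16. The median difference of the 8 genes was 1.99 in OPC-like, 1.48 in astrocyte-like and 0.30 in oligodendrocyte-like cells, against medians of -0.03, -0.12 and 0.01 for all genes.

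Microglia-like and neuron-like cells stood at the other end. In microglia-like cells 7 of 8 genes were lower and none higher (17.7% and 33.3% of all genes), and the eighth, S100a4 (3.2 and 3.1 CPM), had a difference of -1.14 (adjusted p = 0.082). In neuron-like cells 6 were lower and none higher (25.3% and 25.8%). The medians of the 8 genes were -1.79 and -2.02, against 0.0034 and -0.18 for all genes. The size in neuron-like cells moved with the library: in library 1 alone S100a13 was at -1.92, S100a6 at -1.71 and S100a4 at -1.47, and in library 2 alone S100a13 was at -3.81, S100a6 at -3.33, S100a4 at -2.86, S100a16 at -2.60 and S100a11 at -1.67. Neuron-like cells had a median of 11.1% mitochondrial UMIs. A finer cluster of 195 and 88 cells, left unnamed, had 10 of 11 neuron markers raised and was led by Sst, Cck and Slc17a7. Its medians were 899 UMIs and 14.7% mitochondrial UMIs, and its share of the neuron-like class is not given here. In an alternative with cells under 20% only, cells were clustered and named again, and no fibroblast-like class was named. In its neuron-like cells S100a1 was at 0.32, S100a16 at 0.12, S100a6 at -0.05 and S100a4 at -0.60, none of them called, and S100b was at 0.73 (adjusted p = 0.024). Mitochondrial share, class membership and the mean of the other classes changed together, and which of them moved the values was not tested.

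Among vascular and border classes, 4 members were higher and 2 lower in endothelial-like cells (26.2% and 14.9% of all genes), and 1 higher and 3 lower in mural-like cells (22.3% and 13.3%). The fibroblast-like class had 3 higher and none lower (9.19% and 7.91%), and the macrophage-like class had 4 higher and 2 lower (18% and 13.5%). In neuroblast-like cells 2 were higher and 3 lower (31.3% and 21.9%). Over the 80 pairings of gene and class this made 29 higher, 29 lower and 22 without a call.

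Scaling moved the values more than the calls. The factors of the TMM method changed the median difference of all genes by -0.34 in OPC-like and by 0.48 in oligodendrocyte-like cells relative to library sizes alone. Fitted differences of OPC-like minus oligodendrocyte-like cells are thus lower than their CPM would give, and the sign can turn. For S100a10, at means of 5.9 and 4.3 CPM in these classes, the fitted value was -0.31 (SE 0.35, adjusted p = 0.52). S100a16 was at means of 477 CPM in astrocyte-like and 466 CPM in oligodendrocyte-like cells, with a fitted value of -0.47 (adjusted p = 0.14). For S100b the CPM of OPC-like cells were 759 ± 188 and those of oligodendrocyte-like cells 313 ± 17.8 (SD, n = 2), yet the fitted log2 difference was 0.41 (SE 0.40, adjusted p = 0.44). All 58 calls had the same direction on library sizes alone.

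The order of the classes was tested in all 45 pairs for each gene. Of the 360 pairs 262 were called, and 44.5% of all pairs of all genes were. Between classes next to each other in the order of mean CPM, 18 of 72 pairs were called, so most neighbours were not told apart. Neighbours have the closest means by choice, and their share over all genes was not computed. The count thus describes the order and is no trait of the S100 genes. For S100b no neighbour pair was called, and for S100a11 and S100a13 4 of 9 were. The level of S100a16 in OPC-like cells was above that of the next class by mean CPM, astrocyte-like cells (log2 0.86, adjusted p = 0.0092). By fitted difference the next class was oligodendrocyte-like cells (2.49, against 2.92 in OPC-like cells), and that pair is not given here. S100a4 in macrophage-like cells was above OPC-like cells (2.02, adjusted p = 6.5e-05). S100a1 in OPC-like against astrocyte-like cells was at 0.76 (adjusted p = 0.077) and S100a11 in fibroblast-like against mural-like cells at 0.09 (SE 0.27, adjusted p = 0.83). S100a13 in OPC-like against endothelial-like cells was at 0.03 (SE 0.25, adjusted p = 0.96), so these classes were not told apart. Nor were fibroblast-like and OPC-like cells for S100a6 (0.73, SE 0.40, adjusted p = 0.16).

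A finer clustering gave 28 clusters, of which 2 stayed unnamed, and 5 pairs of related clusters were compared over 14674 genes. It set apart the cluster of committed or newly formed oligodendrocytes (99 and 85 cells, led by Bmp4 and Gpr17), most of which had been in the OPC-like class, from precursor and mature cells. Mature here stands for all finer clusters named by the oligodendrocyte list, and their maturity was not tested. Among them, the cluster led by Ctps shared the leading gene 9630013A20Rik with the newly formed cells. S100b was at 454 and 469 CPM in the finer OPC-like clusters, at 1541 and 1000 CPM in the newly formed cells and at 325 and 300 CPM in mature cells. It was thus highest in the middle stage in both libraries when all mature cells were pooled, although the mature cluster led by Klk6 alone reached 1111 and 1041 CPM. The log2 difference was -1.61 for OPC-like against newly formed cells (adjusted p = 0.0014) and 1.5 for newly formed against mature cells (adjusted p = 0.0023), and by DESeq2 neither passed (adjusted p = 0.11 and 0.098).

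S100a6 had the same shape, with 221 and 304 CPM in OPC-like, 490 and 601 in newly formed and 55.4 and 61.7 in mature cells. S100a1 differed from both because it was already at 1342 and 1316 CPM in OPC-like cells and then at 1182 and 980 and at 149 and 168 CPM. Its fitted difference between OPC-like and newly formed cells was 0.09 (SE 0.26, adjusted p = 0.86). S100a16 was at 1155 and 1301, 758 and 834, and 405 and 527 CPM, and neither step was called.

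Newly formed against mature oligodendrocyte-like cells had 6 members higher and none lower (16.7% and 17.7% of all genes). They were S100a4 (log2 3.48), S100a6 (2.74), S100a1 (2.28), S100a11 (1.65), S100b (1.5) and S100a13 (1.08). The S100a11 call rests on few UMIs, mostly of library 1. The newly formed cells of the OPC-like class held 23 and 2 of them (17.8 and 2.1 CPM). In library 1, 2 cells held 20 of the 31 S100a11 UMIs of the OPC-like class. OPC-like against newly formed cells had none higher and 2 lower, S100b and S100a6 (17% and 12.9%).

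**Figure D2:**
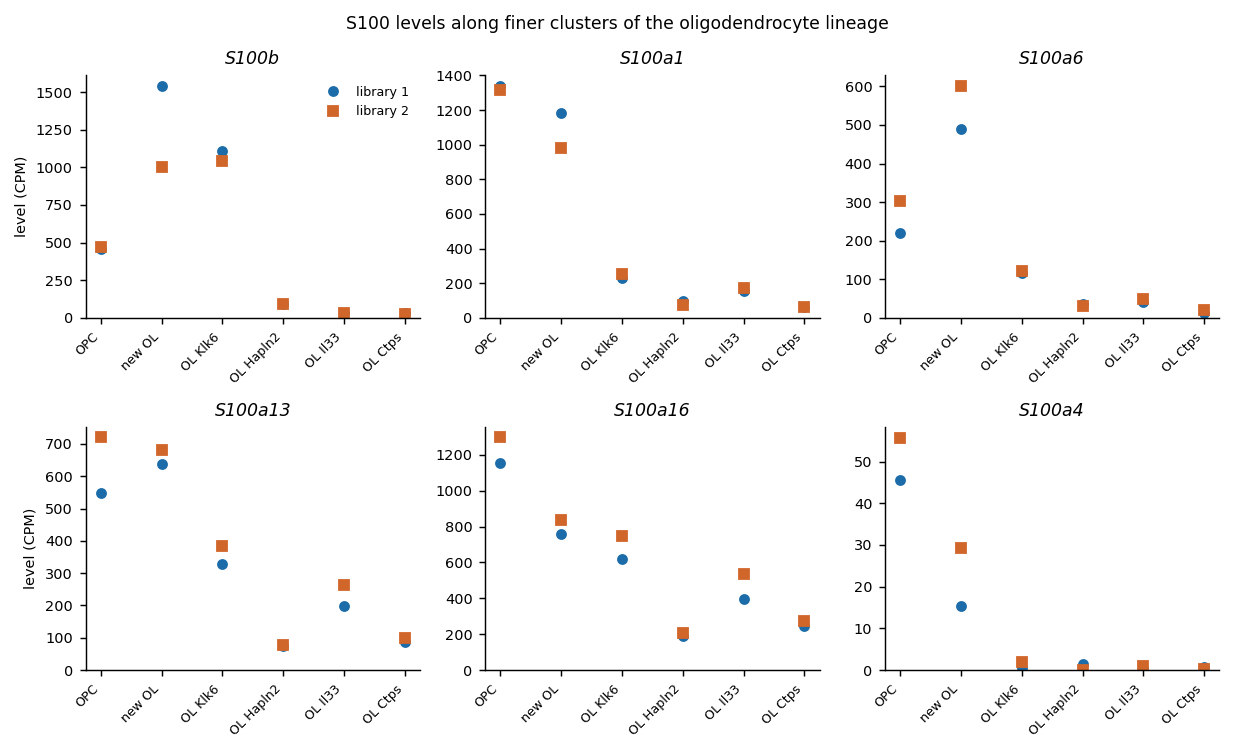
Levels in CPM of S100 genes in finer clusters of the oligodendrocyte lineage, with 1 point per library, from OPC-like over newly formed (new OL) to the 4 other oligodendrocyte-like clusters (OL, each with its leading gene). S100b is high in newly formed cells and again in the Klk6 cluster (1111 and 1041 CPM) and near 30 CPM in the Il33 cluster.

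Within mature oligodendrocyte-like cells S100b was unevenly spread. In the cluster led by Klk6 (165 and 216 cells) it was at 1111 and 1041 CPM and found in 90.9% and 90.3% of cells. In the larger cluster led by Il33 and Ptgds (380 and 533 cells) it was at 32.6 and 31.0 CPM, and in that led by Ctps (95 and 106 cells) at 34.8 and 24.6 CPM. By mean CPM the highest cluster was 36.3 times the lowest. S100a16 differed less, with 619 and 748 CPM in the Klk6 cluster and 395 and 538 in the Il33 cluster. These clusters were defined on the same cells, and the values are descriptions.

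The last oligodendrocyte-like cluster, led by Hapln2, had a median of 22.2% mitochondrial UMIs and 92.1 and 89.4 CPM of S100b. For S100a13 it was the lowest of the 4 clusters, with 74.9 and 76.5 CPM against 328 and 383 in the Klk6 cluster, and likewise for S100a16. The part of RNA quality in these levels was not tested.

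In the mural class, smooth muscle-like against pericyte-like cells had 3 members higher and none lower (9.81% and 8.16% of all genes). S100a11 was at 832 and 790 CPM in smooth muscle-like and 249 and 345 CPM in pericyte-like cells (log2 1.74, SE 0.31, adjusted p = 9.8e-05). S100a6 was at 136 and 241 CPM against 21.8 and 30.6 CPM (3.11, SE 0.63). S100a4 was at 4.6 and 25.2 CPM against 0 and 2.8 CPM, and since the pericyte-like value is 1 UMI in all, its fitted difference (3.13, SE 1.13, adjusted p = 0.043) is no measure of size.

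Macrophage-like against microglia-like clusters had 6 members higher and none lower (8.46% and 10.4% of all genes). Both are phagocytes that live in the brain, microglia in the tissue and macrophages mainly along vessels and membranes. The differences were 4.86 for S100a4, 4.48 for S100a6, 3.75 for S100a11, 3.05 for S100a10, 1.53 for S100a1 and 0.97 for S100a13. Only S100b (-0.01) and S100a16 (0.70) were not called. At a finer resolution of 1.2 S100a4 was at -0.45 (adjusted p = 0.81) and S100a6 at 1.29 (adjusted p = 0.31), so these 2 calls depended on which cells the macrophage-like cluster held.

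Among neuronal precursors, cycling progenitor-like against neuroblast-like clusters had 1 member higher and 1 lower (14.7% and 13.5% of all genes). S100a10 was at 177 and 133 CPM in cycling cells and, in neuroblast-like cells, at 382 and 381 CPM (log2 -1.25, SE 0.22, adjusted p = 0.00013). S100a11 was at 45.9 and 48.0 against 25.3 and 22.4 CPM (0.99, adjusted p = 0.0499). Within the neuroblast-like class S100a10 was at 478 and 497 CPM in the cluster led by Stmn2 and 138 and 82.5 CPM in that led by Pbx3.

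Ependymal-like cells (58 and 50 cells), the ciliated lining of the ventricle, had a profile of their own. S100a6 was at 682 and 1141 CPM, S100a4 at 84.1 and 159 CPM, S100a11 at 288 and 129 CPM and S100a10 at 171 and 178 CPM. In astrocyte-like cells, to which ependymal cells are related, the same genes were at 185 and 206, 24.7 and 25.1, 10.8 and 5.9, and 36.6 and 30.5 CPM. Added after the data were seen, this comparison had 4 members higher and 2 lower (12.2% and 12% of all genes). S100a11 (log2 4.25, SE 0.38), S100a10 (2.10), S100a4 (1.98) and S100a6 (1.95) were higher and S100a13 (-1.07) and S100a16 (-0.80) were lower.

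**Figure D3:**
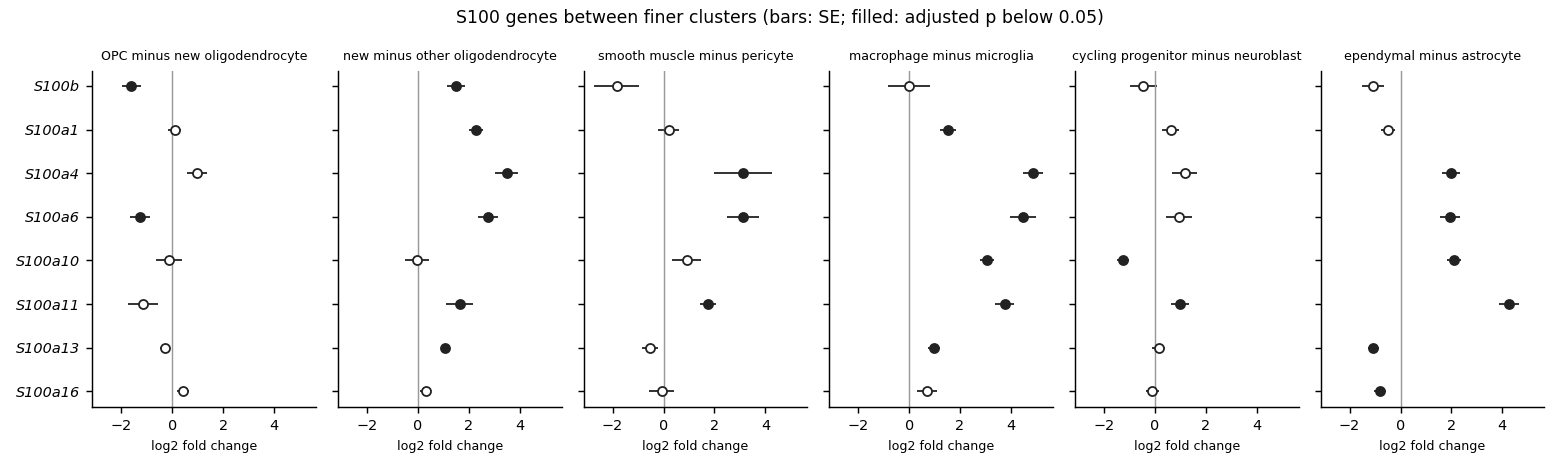
Log2 fold changes of the 8 S100 genes between finer clusters, with bars for the SE and filled points for an adjusted p below 0.05. S100a4 and S100a6 lie to the right in macrophage-like against microglia-like, smooth muscle-like against pericyte-like and newly formed against mature oligodendrocyte-like cells.

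In astrocyte-like cells Crym+ cells (503 and 437) were compared with Crym- cells (819 and 545) over 6040 genes. Following the study's rule, a cell was Crym+ above 0.25 on the natural log scale of UMIs per 10000, which took every cell with a Crym UMI, 178 and 91 of them with exactly 1. Of the 7 members that passed this filter, 5 were higher in Crym+ cells and none lower, and 1.42% and 2.52% of all genes were called in these directions. S100a4, among the 5, had 38 and 26 UMIs in the Crym- cells. It thus passed the filter only through the Crym+ cells, and its call adds no support to the count. S100a13 was at 434 and 503 CPM in Crym+ and 300.3 and 342 CPM in Crym- cells (log2 0.52, SE 0.08, adjusted p = 0.0057).

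S100a6 was at 215 and 249 CPM against 153 and 152 CPM (0.57, adjusted p = 0.0066), S100a1 at 666 and 679 against 486 and 509 CPM (0.41, adjusted p = 0.017), and S100a16 at 496 and 579.8 against 406 and 406 CPM (0.38, adjusted p = 0.036). S100a4 had the largest difference on the fewest UMIs, with 31.0 and 33.9 against 18.7 and 13.9 CPM (0.93, adjusted p = 0.026), and 0.69 in library 1 alone and 1.2 in library 2 alone. For all 5 genes both libraries went the same way. S100b, the classical astrocyte member, was at 252 and 274 CPM in Crym+ and 230 and 298 CPM in Crym- cells (-0.03, SE 0.10, adjusted p = 0.91), and its 2 libraries went opposite ways. S100a10 was at 34.7 and 26.7 against 38.4 and 35.3 CPM (-0.28, adjusted p = 0.36).

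Depth and cluster moved with the Crym groups. Crym+ cells had medians of 2412 and 5218 UMIs and Crym- cells 1463 and 1963. The astrocyte cluster led by Grin2c, with a median of 12.4% mitochondrial UMIs, held 30.2% and 26.1% of Crym+ but 46.2% and 47.0% of Crym- cells, and S100a1 there was at 163 and 147 CPM against 673 and 681 CPM in the deepest cluster, led by Crym and Fjx1. Without the Grin2c cluster no member was called by edgeR, and S100a13 was at 0.34 (adjusted p = 0.12). S100a10 was at -0.47 there (SE 0.18, adjusted p = 0.35). Within the deepest cluster alone S100a13 was at 0.27 (adjusted p = 0.11), S100a1 at 0.22 (adjusted p = 0.19) and S100a4 at 0.83 (adjusted p = 0.11), and no member was called. S100a10 was at -0.63 in that cluster (SE 0.21, adjusted p = 0.16). In the cluster led by Aldoc the libraries went opposite ways for S100a1, with 1115 and 977 CPM in Crym+ against 785 and 1046 CPM in Crym- cells. They also did in the Grin2c cluster, with 133 and 149 CPM of S100a1 in Crym+ against 177 and 146 CPM in Crym- cells, and S100a4 there, on 1 to 6 UMIs, was at 11.3 and 4.5 against 8.4 and 7.3 CPM.

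The call on the 5 genes also depended on the test. By DESeq2 none was called (S100a13 at 0.52, adjusted p = 0.13), and without the library block none was called. Over all alternatives the adjusted p of S100a13 ran from 6.9e-08 to 0.84 and that of S100a1 from 5.8e-06 to 0.87. The direction of the 5 genes held in every alternative that tested them and with either library left out.

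**Figure D4:**
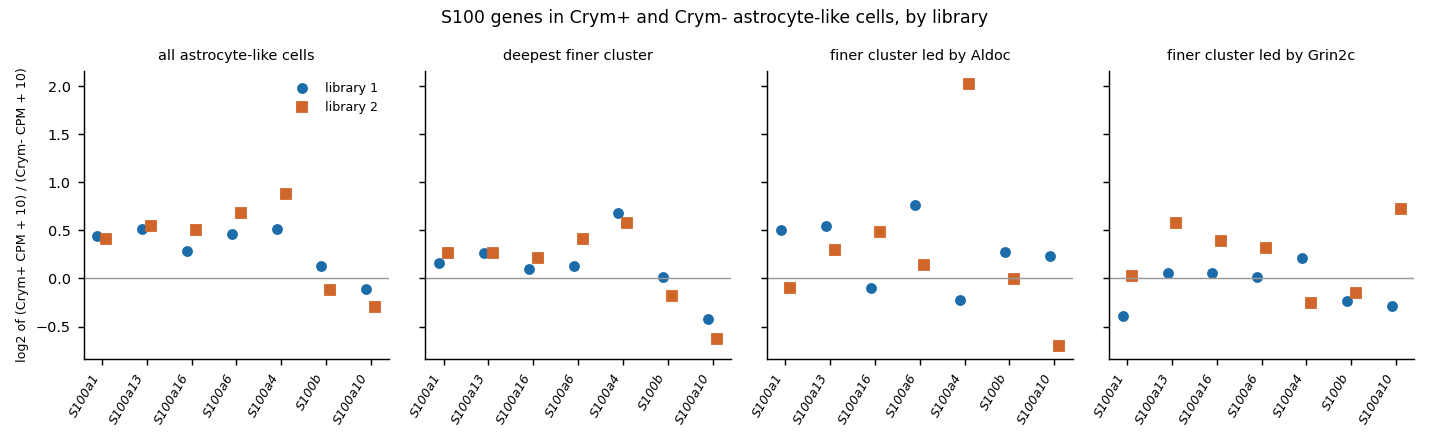
Log2 ratio of the level in Crym+ to that in Crym- astrocyte-like cells (10 CPM added to each) for S100 genes, with 1 point per library, over all astrocyte-like cells and within single clusters. S100a13, S100a6, S100a1, S100a16 and S100a4 lie above 0 in both libraries over all cells, and S100b lies on both sides. Among these 5 genes the points lie on both sides of 0 for S100a1, S100a16 and S100a4 in the cluster led by Aldoc and for S100a1 and S100a4 in that led by Grin2c.

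Partner genes, a list of 20 taken from known S100 interactions, were tested in the same fit. They were called higher 68 and lower 70 times in the 200 pairings of gene and class. In mural-like cells 17 of 20 were higher and none lower (22.3% and 13.3% of all genes), and in endothelial-like cells 12 and 2 (26.2% and 14.9%). Macrophage-like cells had 11 and 3 (18% and 13.5%) and fibroblast-like cells 8 and 0 (9.19% and 7.91%). In OPC-like cells, where 6 S100 genes were higher, 3 partners were higher and 12 lower (26.4% and 16.9%), and in astrocyte-like cells 4 and 10 (26.1% and 21.4%). For the other classes in the 200 pairings the shares of all genes given above apply.

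Anxa2, the annexin that holds S100A10, was at 307 and 692 CPM in fibroblast-like, 247 and 218 in endothelial-like and 169 and 141 in mural-like cells, but at only 18 and 21 CPM in neuroblast-like cells, where S100a10 was at 267 and 217 CPM. Ahnak was at 629 and 573 CPM in endothelial-like cells. Cacybp, the S100A6 partner, was at 265 and 255 CPM in neuroblast-like and 254 and 203 CPM in OPC-like cells. For the receptors, Tlr4 was at 43 and 60 CPM in macrophage-like and 36 and 51 CPM in microglia-like cells, and Ager did not pass 8 CPM in any class. Between Crym+ and Crym- cells none of the 9 partners tested was called by edgeR.

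Across the 10 tested classes, and as a description over points that share libraries and depth, Pearson's r of the log levels was 0.83 for S100a1 with S100a16, 0.83 for S100b with S100a16 and 0.80 for S100a1 with S100a13, and 0.71 for S100a10 with S100a11. For S100b with S100a13 it was 0.52. S100a6 did not keep to the pair with which it was described above: its r was 0.73 with S100a1, 0.44 with S100b and with S100a13 and 0.41 with S100a16, but 0.32 with S100a10 and 0.23 with S100a11. S100a4 had its highest r with S100a6 (0.47). The lowest was that of S100b with S100a11 (-0.64). Among 8201 genes of sufficient level, those most like S100b over the 10 classes were Cdh20 (0.98) and Sox8 (0.97), like S100a1 Cyp2j6 (0.98) and Scrg1 (0.93), and like S100a11 Anxa2 (0.96) and Ifitm2 (0.96). S100a6 was most like Tmed1 (0.96), S100a16 like Mocs2 (0.95), S100a13 like Mif4gd (0.90), S100a4 like Dmac1 (0.87) and S100a10 like Glipr2 (0.86).

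Of the S100 genes outside the list, S100a2 and S100a3 were counted mostly in OPC-like cells. S100a2 had 63 and 67 UMIs in OPC-like cells, found in 13.3% and 12.8% of them, and at most 8 in any other class and library. S100a3, a gene known from hair, had 27 and 50 UMIs in OPC-like and 9 and 13 in astrocyte-like cells. In level this was 19.6 and 20.8 CPM of S100a2 and 8.4 and 15.5 CPM of S100a3 in OPC-like cells.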

How the data were processed

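Single-cell 3' RNA-seq of 2 libraries was deposited by the authors as raw UMI counts per gene and barcode, without normalization. The submitters' processing notes name Cell Ranger 4.0 and the mm10 genome (the study's methods give another Cell Ranger version). The genes and gene lists were chosen with earlier results of these data known.

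Barcodes with under 300 genes (80 and 73) and doublets called by Scrublet in scanpy 1.11.5 (95 and 150, 1.38% and 2.80%) were left out, which kept 12017 of 12415 barcodes. Cells were normalized to 10000 UMIs, integrated by canonical correlation and clustered in Seurat 5.3.0 on 2000 variable genes and 30 components at resolutions of 0.08 and 0.8, with 133 genes left out. A class took a marker list's name when 3 of its markers were raised 2-fold (10 CPM added) and 1 was among its 50 leading genes, a rule set after the counts were seen. "X-like" means that a name rests on markers alone.

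UMIs were summed per library and class and tested with edgeR 4.0.16 (quasi-likelihood, TMM factors, library as a block, filterByExpr), with Benjamini-Hochberg adjustment and a threshold of 0.05. Both libraries supply cells to every class, so the library number pairs the groups. The labels do not say that the libraries are separate animals. With the library as a block, p-values measure only how groups vary between the 2 libraries beyond a shift shared by all groups. Genes named by values are the 10 S100 genes, with 2 most alike genes each and partners that were given by role. Depth was 44597660 and 37982720 UMIs. Intervals are exact and cover counting error only. Gene positions come from GENCODE annotation of GRCm38. Alternatives were DESeq2 1.42.0, library sizes alone, no gene filter, no block, other resolutions, doublets kept, at least 500 genes, under 20% mitochondrial UMIs, thinning to 1000 UMIs and each library left out, with 7 more chosen after seeing the data.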

Additional observations from a re-analysis of the deposited data

How the results depend on the processing

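Counts of calls by class varied little between alternatives, with 29 to 33 higher and 27 to 31 lower of at most 80, and those of partners stayed between 64 and 68 higher and 66 and 72 lower. Of the 58 calls on S100 genes by class 55 to 58 were still called, except under 20% mitochondrial UMIs, where no fibroblast-like class was named and 49 of 55 were. There 53 of the 55 kept their direction. The counts in that setting stayed at 29 and 29 because other calls took the place of those lost. The replicate block changed few calls by class: without it 56 of the 58 were still called, and S100b in macrophage-like (adjusted p = 0.075) and neuroblast-like cells (0.068) was not. Between Crym+ and Crym- cells the 5 calls fell to 0 by DESeq2, 0 without the replicate block, 3 with doublets kept, 2 thinned to 1000 UMIs, 0 without the high-mitochondrial cluster and 0 within the deepest cluster, the last 2 chosen after seeing the data. After thinning only 5 members were tested and S100a4 was not among them, so its call was not lost but left untested. The blocked fit is the one reported. Between finer clusters the 3 lower calls became 1 by DESeq2 and 5 with every gene with a count.

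Directions turned in these cases, whose cause was not tested. At resolution 0.32 the neuroblast-like values were -0.69 for S100a4, -1.91 for S100a6 and -0.84 for S100a11, and thinned S100a11 was at -0.29. Without ependymal-like cells S100a6 was at -1.36 and S100a11 at -0.18, and without library 2 S100a6 was at -0.13. In neuron-like cells under 20% mitochondrial UMIs S100a1 was at 0.32, S100a16 at 0.12 and S100b at 0.73. In fibroblast-like cells S100b was at -0.28 when thinned and between -6.14 and 1.42 with one library left out, and between macrophage-like and microglia-like clusters S100a4 was at -0.45 at resolution 1.2. Between Crym groups S100b was at 0.050 with every gene and between -0.16 and 0.12 with one library left out.

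With 1 library left out there are no residual degrees of freedom, so such values carry no test, and counts of calls were not made. All 58 called directions held in either library. The median share of cells with a UMI of the 8 genes in their highest class was 69.2%, 40.1% after thinning to 1000 UMIs, and between 59.1% and 77.6% in single libraries. The low counts of S100a4 (922 UMIs) and the 35 and 20 fibroblast-like cells limit what can be said of them.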
